A study of Mus musculus with 9 samples.

Results

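The mouse embryonic stem cell line R1 was compared with mouse embryonic fibroblasts (MEF). The comparison rests on 6 of the 9 arrays of the study, 3 of R1 and 3 of MEF, and covers all 19938 genes that had a probe set with 1 gene symbol. A gene with several such probe sets was represented by the brightest of them, judged by its mean. The remaining 3 arrays held induced pluripotent stem cells (iPS cells) made from these fibroblasts. They entered the statistical fit and are described here where they differed from R1. According to the series design, R1 and MEF were the controls for the iPS cells and each line had biological repeats. The MEF were primary cultures below passage 3. R1 is a single established line, so its arrays sample 1 genotype and no other stem cell line. For strain, embryo age, culture medium, feeder cells and any drug treatment, the sources used here give no information. Nor do they say how the repeats of a line were made, so the p-values reflect how far these cultures varied, which may be partly technical.

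An embryonic stem cell is a cultured derivative of the inner cell mass of the blastocyst that divides without limit and can form all tissues of the embryo. Its identity is held by a network of transcription factors around Oct4, Sox2 and Nanog, which activate one another and a set of chromatin, signalling and metabolic genes. An embryonic fibroblast is a mesenchymal cell that spreads on plastic, builds actin stress fibres and secretes collagen, elastin and other matrix under the influence of transforming growth factor beta (TGF-beta). The comparison therefore sets an epithelial-like, rapidly dividing cell against an adherent, contractile, matrix-producing one.

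The measurement is a deposited linear signal per probe set and array. Median signals of the 6 arrays were 78.2 to 82.7, and no pair of arrays held identical values. Signals under 50 are called dim, since no detection calls were used. Differences are R1 minus MEF on the scale of log2(signal + 16), with the standard error of the fit, so changes of dim genes are understated. A gene is said to be called, or to have risen or fallen, where limma's Benjamini-Hochberg adjusted p was under 0.05 and the difference was at least 1 log2 unit. Signals of different genes depend on their probes, so levels are compared between groups. The height of the signal across genes served only to choose which probe set, and which members not called, are given.

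The marker genes of both cell types followed the array labels. The stem cell genes Zfp42, Pou5f1 and Dppa5a and the fibroblast genes Tgfb3 and Fbln5 each separated the 3 R1 arrays from the 3 MEF arrays. R1 replicate 2 stood apart from the other R1 arrays in the signal left at fibroblast genes. Among 448 genes that were called lower in R1 and had a mean MEF signal of 1000 or more, R1 replicate 2 was the highest R1 array at 351, replicate 1 at 46 and replicate 3 at 51. Their median signal was 23.2% of the MEF mean in R1 replicate 2, 20.5% in replicate 1 and 20.2% in replicate 3. At 259 genes called higher with a mean R1 signal of 1000 or more, the highest array was replicate 1 at 74, replicate 2 at 99 and replicate 3 at 86. Values without R1 replicate 2 are therefore given beside those genes described as lower in R1 whose difference moved by over 0.2 log2 units without it. Whether MEF-like cells in that culture had a part in its signals was not tested.

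In all, 2689 of 19938 genes were called, which is 13.5%. In R1, 1108 genes (5.56%) were higher and 1581 (7.93%) were lower. The MEF and R1 arrays did not overlap at any of the 2689, which the rule for a call makes likely. The median difference over all genes was 0.02. These shares are the background for the gene lists below, which are described by counts and medians. The list members were chosen for their known roles, with earlier results of these data known. An excess over the background may therefore partly reflect that choice.

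**Figure D1:**
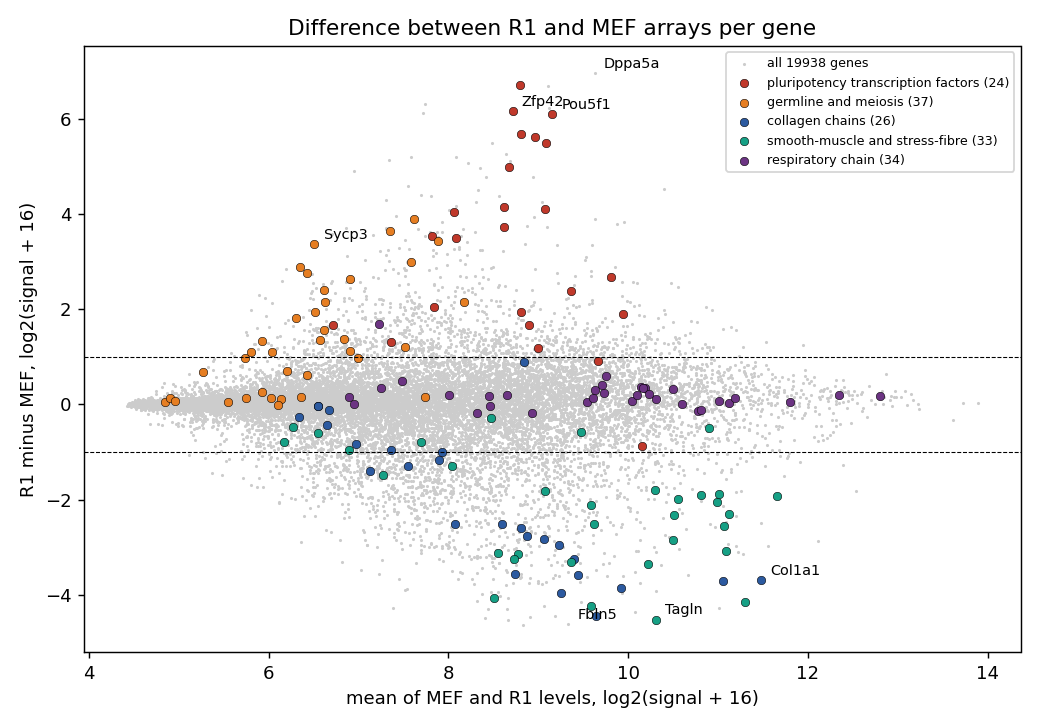
Difference between R1 and MEF (vertical axis, log2 units of signal + 16) against the mean of the MEF and R1 levels (horizontal axis, same scale) for 19938 genes in grey, with the members of 5 gene lists in colour and dashed lines at a difference of 1 in each direction. Most pluripotency factors and germline genes lie above the upper line, most collagens and stress-fibre genes below the lower one, and respiratory chain genes between the lines apart from Cox7a1 at 1.69 ± 0.09.

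The central genes of the pluripotency network gave little signal in the fibroblasts and strong signal in R1. Of 24 transcription factors of the network, 22 rose and 0 fell, with a median difference of 3.53. Pou5f1, which encodes Oct4, gave signals of 64.4, 48.2 and 46.5 in the MEF arrays and 4576, 4837 and 4705 in the R1 arrays. All R1 arrays were within a narrow band far above all MEF arrays, a rise of 6.10 ± 0.09 log2 units (adjusted p = 2.71e-10 by limma). Nanog, the homeobox factor that keeps stem cells from differentiating, had 50.6, 41.4 and 48.2 in MEF and 3061, 3616 and 2937 in R1 (5.68 ± 0.09). Sox2, the partner of Oct4 on DNA, had 63.6, 73.5 and 58.1 in MEF and 3743, 3591 and 3566 in R1 (5.50 ± 0.07). The MEF signals of these 3 genes were at or near the dim range in every array. Zfp42, the zinc-finger gene also known as Rex1, had 30.3, 29.7 and 41.4 in MEF and 3541, 3795 and 3281 in R1 (6.16 ± 0.11).

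Other members of the network followed the same order of arrays. Nr0b1, an orphan nuclear receptor that limits differentiation, had 26.2, 16.6 and 40.8 in MEF and 4421, 4837 and 4269.9 in R1, a difference of 6.72 ± 0.20. Utf1, a chromatin-bound factor of undifferentiated cells, rose by 5.63 ± 0.06. Otx2, a factor of the transition towards the epiblast, was at 55.7, 47.2 and 44.6 in MEF and 910.2, 508 and 879 in R1, so that R1 replicate 2 was the lowest R1 array and still far above MEF. Klf4, a Krüppel-like factor used in reprogramming, was not silent in fibroblasts, with 261, 286 and 267 in MEF and 1418, 1531 and 1520.2 in R1 (2.39 ± 0.06). The 2 members not called were Zfp281, at 0.91 ± 0.05, and Myc, the growth-promoting factor, at -0.87 ± 0.12. Myc had its lower signals in R1, 787, 976 and 719, against 1652, 1438 and 1468 in MEF.

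Windows of the promoters of 3 of these genes are printed because each holds the core of the octamer, the DNA element that Oct4 binds. Each is the 250 bases before the RefSeq transcription start in build GRCm38.p6, written 5′ to 3′ on the strand of the gene, with TTTGCAT or its reverse complement in capitals. Nanog is at chr6:122707239-122707488 on the plus strand, Sox2 at chr3:34649745-34649994 on the plus strand and Zfp42 at chr8:43307010-43307259 on the minus strand. The letters begin at positions -75, -99 and -185 relative to the start, respectively.
Nanog: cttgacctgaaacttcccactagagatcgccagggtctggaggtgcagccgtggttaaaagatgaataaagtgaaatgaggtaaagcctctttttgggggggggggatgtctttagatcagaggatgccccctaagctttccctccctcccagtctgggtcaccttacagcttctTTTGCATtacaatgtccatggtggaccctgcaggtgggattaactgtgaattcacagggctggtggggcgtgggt
Sox2: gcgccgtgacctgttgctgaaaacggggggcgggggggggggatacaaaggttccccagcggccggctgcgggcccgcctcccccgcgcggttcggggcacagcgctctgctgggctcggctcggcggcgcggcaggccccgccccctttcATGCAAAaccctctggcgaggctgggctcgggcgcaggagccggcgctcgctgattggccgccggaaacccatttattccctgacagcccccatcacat
Zfp42: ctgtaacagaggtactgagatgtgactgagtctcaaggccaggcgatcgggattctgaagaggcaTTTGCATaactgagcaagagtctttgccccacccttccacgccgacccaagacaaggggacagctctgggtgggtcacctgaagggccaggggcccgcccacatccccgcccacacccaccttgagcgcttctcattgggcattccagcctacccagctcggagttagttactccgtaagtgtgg

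In windows of 300 bases, 250 before and 50 after the start, TTTGCAT was found on either strand in 3 of 19 network factors with a window in the RefSeq table (15.8%). Over all 15563 genes with a window the share was 4.1%, over the 864 genes higher in R1 it was 4.51%, and over the 1236 lower in R1 it was 2.67%. It was in 3.33% of the windows of genes with a signal of 50 or more in a group and in 0 of 17 windows of the effectors and surface markers of pluripotent cells described next. A match is a run of letters and does not show binding.

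The downstream genes of the network rose in like manner. Of 28 effectors and surface markers of pluripotent cells, 26 rose and 0 fell, with a median of 3.50. Dppa5a, an RNA-binding protein of early embryos, had the highest difference of all genes on this scale, with 45.6, 31.1 and 95.01 in MEF and 8719, 8659 and 8192 in R1 (6.96 ± 0.24). MEF replicate 3 was the highest MEF array at this gene. The order of such genes depends on the pseudocount, since their MEF signals were mostly dim: without one, Dppa5a was at 7.38 and Nr0b1 at 7.43. Tdgf1, the Nodal co-receptor Cripto, had 41.6, 27.1 and 45.9 in MEF and 5753, 5330.3 and 5673 in R1 (6.71 ± 0.12). Trh, which encodes thyrotropin-releasing hormone, had 58.9, 46.2 and 39.7 in MEF and 5149, 4673 and 4640.3 in R1 (6.24 ± 0.14). Dppa2, a chromatin factor of the early embryo, rose by 5.27 ± 0.10, and Fbxo15, an F-box gene widely used as a reporter of reprogramming, by 5.20 ± 0.12. Alpl, the alkaline phosphatase by which stem cell colonies are stained, rose by 2.93 ± 0.13. Dppa3, also called Stella, was not called, with 76.6, 40.5 and 51.6 in MEF and 83.3, 72.00 and 92.4 in R1 and overlapping groups. Fut4, the fucosyltransferase linked to the SSEA-1 antigen, was not called either (-0.26 ± 0.04).

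The list of the 15 largest increases also held the zinc-finger genes Zfp980 (6.32 ± 0.16), Zfp640 (6.12 ± 0.17) and Zfp979 (5.14 ± 0.16). Copies in this zinc-finger family are almost identical, so the probe sets may not tell them apart and these values are uncertain. Fam169a rose by 5.21 ± 0.07.

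**Figure D2:**
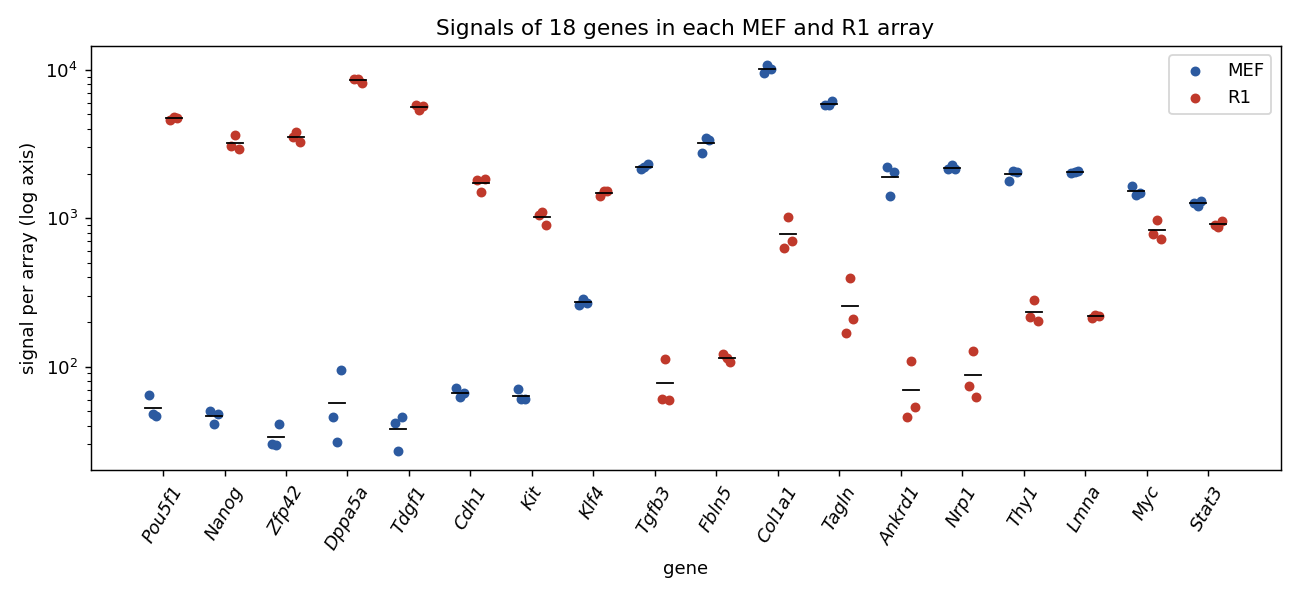
Signal of 18 genes in each of the 3 MEF and 3 R1 arrays on a log axis, one point per array with the group mean as a line. At Pou5f1 and Dppa5a the R1 points sit far above the MEF points, and at Tgfb3 and Fbln5 far below them.

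Genes of the leukaemia inhibitory factor (LIF) pathway, through which Stat3 maintains mouse stem cells, moved in both directions. Of 16 genes, 4 rose and 6 fell, and the median was -0.21. The ligand-specific receptor chain Lifr had 265, 313 and 294 in MEF and 962, 815 and 867 in R1, a rise of 1.55 ± 0.10. The shared signalling chain Il6st (gp130) fell, with 2226, 2091 and 2320.2 in MEF and 917, 942 and 879 in R1 (-1.26 ± 0.07). Oncostatin M receptor, Osmr, the other partner of gp130 in fibroblasts, had 962, 949 and 969 in MEF and 83.3, 128 and 66.7 in R1 (-3.21 ± 0.17, or -3.43 ± 0.11 without R1 replicate 2). The kinases Jak1 (-1.57 ± 0.11) and Jak2 (-2.29 ± 0.12) fell, whereas the feedback inhibitors Socs2 (1.65 ± 0.13) and Socs3 (1.50 ± 0.10) rose. The second probe set of Socs3 gave a smaller difference of 0.71. Stat3 itself was slightly lower and not called, at -0.46 ± 0.07. Receptor, shared chain and feedback genes thus differed in direction.

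Fibroblast growth factor (FGF) genes divided likewise, with 5 of 22 higher and 6 lower and a median of 0.16. The lower count was 2 with a pseudocount of 64 in place of 16, and also 2 with limma's treat test against a difference of 1. Fgf4, the autocrine ligand of stem cells, rose from 100.4, 85.6 and 115 in MEF to 755, 685 and 744 in R1. Fgf15 rose by 2.08 ± 0.20 and the ERK-responsive factor Etv5 by 3.35 ± 0.10. Fgf7, a mesenchymal ligand, had 1418, 1389 and 1399 in MEF and 168, 234 and 109.9 in R1 (-2.98 ± 0.21, or -3.22 ± 0.17 without R1 replicate 2). The receptors Fgfr1 (-1.30 ± 0.07) and Fgfr2 (-1.15 ± 0.10) and the ligand Fgf2 (-1.22 ± 0.19) fell by smaller amounts. Fgf2 was no longer called without MEF replicate 2 (-0.99).

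Regulators of DNA methylation rose more often than they fell, with 7 of 15 higher, 2 lower and a median of 0.99. The Tet enzymes, which oxidise methylated cytosine, differed from one another. Tet1 was at 78.8, 90.5 and 62.7 in MEF and 2469, 2304 and 2896 in R1 (4.79 ± 0.13), and Tet2 at 105, 109.9 and 107 in MEF and 820.3, 1046 and 765 in R1 (2.85 ± 0.11). Tet3 was the reverse, with 249, 340.1 and 251 in MEF and 68.6, 58.5 and 76.6 in R1 (-1.81 ± 0.12), although its lower probe set gave -0.91 and no call. Among the writers, the de novo enzyme Dnmt3b rose by 3.30 ± 0.13 and its cofactor Dnmt3l by 5.08 ± 0.15. The maintenance enzyme Dnmt1 was not called, at 0.30 ± 0.06, and had clear signal in both cell types, 1095 ± 38.7 in MEF and 1357 ± 98.8 in R1 (SD, n = 3 each). Zfp57 (2.46 ± 0.10) and Trim28 (1.25 ± 0.05), which protect imprinted methylation, rose.

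Polycomb genes, whose products keep developmental genes silent through histone marks, had 13 of 30 members higher and 2 lower, with a median of 0.65. The accessory subunits of the PRC2 complex led: Jarid2 had 223, 251 and 232 in MEF and 3444, 3616 and 3397 in R1 (3.80 ± 0.06), and Mtf2 rose by 2.56 ± 0.10. The catalytic subunit Ezh2 was higher in every R1 array but below the minimum difference (0.85 ± 0.04). The core subunit Eed rose by 1.83 ± 0.07, while its lower probe set gave 0.27 and no call. In PRC1, Phc1 (3.03 ± 0.10), Cbx7 (2.38 ± 0.11) and L3mbtl2 (2.08 ± 0.09) rose, and Bmi1 (-1.43 ± 0.09) and Yaf2 (-1.56 ± 0.11) fell. Bmi1 signals were 422, 439.6 and 488 in MEF and 154, 177 and 140.1 in R1, so the fall was present in each R1 array.

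The BAF remodelling complex, an ATP-driven machine that slides nucleosomes, had 3 of 26 genes higher, 2 lower and a median of -0.01. Smarcd1 (1.38 ± 0.11), Arid1a (1.08 ± 0.08) and Actl6a (1.05 ± 0.04) rose. Smarcc2 (-1.59 ± 0.07) and the ATPase Smarca2 (-1.21 ± 0.06) fell, while Smarcc1 was at 0.35 ± 0.06. At the nuclear envelope, Lmna, which encodes the A-type lamins of differentiated cells, had 2006, 2048 and 2091 in MEF and 214, 223 and 219.8 in R1 (-3.14 ± 0.05). The B-type lamin gene Lmnb1 was not called (0.72 ± 0.05). Of the 16 envelope genes, 3 fell and 0 rose. Besides Lmna these were the nesprin genes Syne1 (-1.24 ± 0.05) and Syne2 (-1.50 ± 0.11), which link the nucleus to the cytoskeleton. Both lost their call with the probe set of the lowest mean (-0.80 and -0.64), which left 1 gene, and Syne1 also with a pseudocount of 64 (-0.91).

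**Figure D3:**
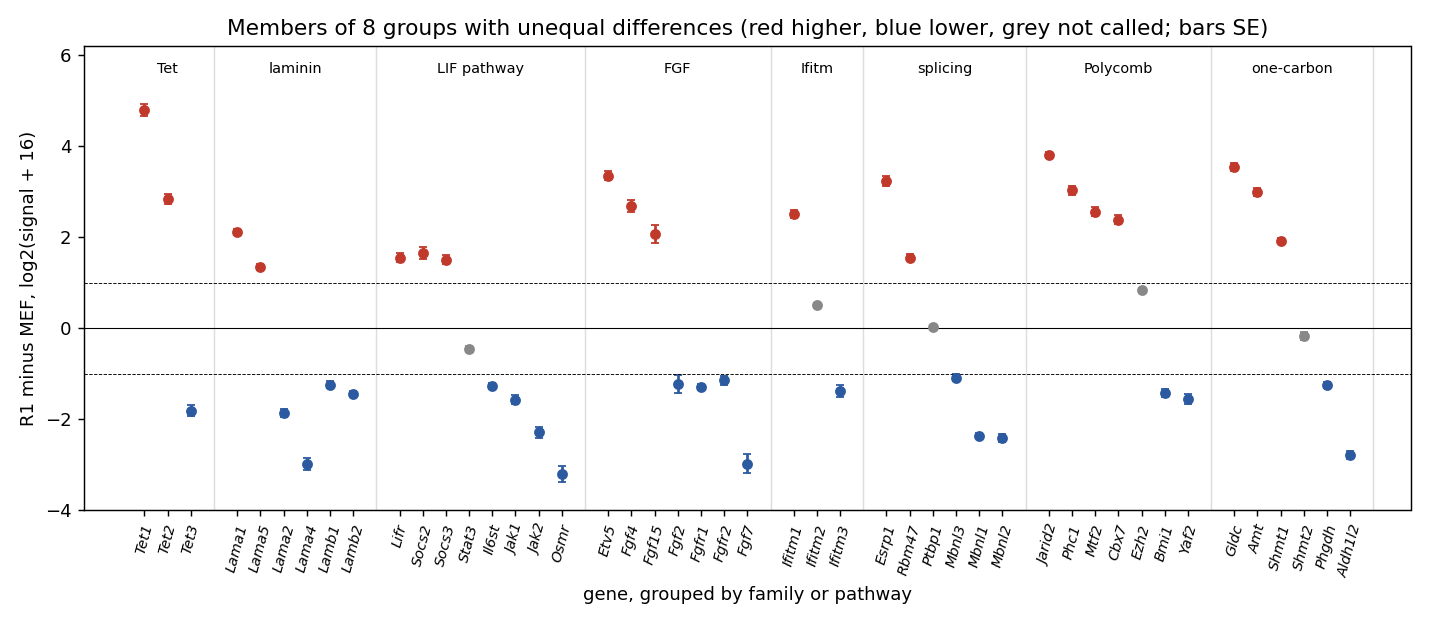
R1 minus MEF differences (vertical axis, log2 units) with standard errors of the fit for members of 8 gene families or pathways, in red where called higher in R1, blue where called lower and grey where not called; dashed lines mark a difference of 1. Tet1 and Tet2 lie above 0 and Tet3 below, and Lama1 and Lama5 lie opposite Lama2 and Lama4.

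Epithelial genes were more often higher than lower in R1, with 13 of 39 higher, 1 lower and a median of 0.65. Cdh1, the adhesion molecule E-cadherin, had 71.5, 62.2 and 66.3 in MEF and 1820.3, 1509.7 and 1833 in R1 (4.39 ± 0.09). Epcam, an epithelial surface protein, was dim in MEF at 27.3, 20.97 and 19.03 and had 898, 873 and 942 in R1 (4.59 ± 0.09). The protease inhibitors Spint1 (2.54 ± 0.07) and Spint2 (3.38 ± 0.16), the desmosomal cadherin Dsg2 (2.60 ± 0.13) and the epithelial splicing factor Esrp1 (3.23 ± 0.12) rose. The exception was the keratin Krt19, with 630.3, 498 and 512 in MEF and 134, 179.8 and 181 in R1 (-1.64 ± 0.12). Tjp1, the tight-junction scaffold ZO-1, had overlapping groups (0.03 ± 0.05).

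Genes of germ cells and meiosis changed in 1 direction, with 21 of 37 higher, 0 lower and a median of 1.12. Sycp3, a protein of the synaptonemal complex, was dim in MEF at 14.2, 10.9 and 11.3 and reached 212, 309 and 315 in R1 (3.37 ± 0.15). Ccnb1ip1, a crossover regulator also called Hei10, had 38.9, 36.3 and 29.7 in MEF and 709, 771 and 739 in R1 (3.90 ± 0.08). The meiotic cohesin subunit Stag3 rose by 3.00 ± 0.11. Of the piRNA pathway, which silences transposons in germ cells, Tdrd12 rose by 3.65 ± 0.07 and Mael by 2.90 ± 0.15. Hsf2bp, a meiotic recombination factor, rose by 3.44 ± 0.11. Members with the highest signals among those not called were Hormad1 (0.98 ± 0.17; 1.58 in its other probe set), Rhox9 (0.62 ± 0.11) and Rhox6 (0.16 ± 0.13).

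The promoter of Sycp3 is printed because its E-box, the hexamer CACGTG, recurs in this list. The window is chr10:88459337-88459586 on the plus strand, the 250 bases before the RefSeq start in GRCm38.p6, with each CACGTG in capitals.
Sycp3: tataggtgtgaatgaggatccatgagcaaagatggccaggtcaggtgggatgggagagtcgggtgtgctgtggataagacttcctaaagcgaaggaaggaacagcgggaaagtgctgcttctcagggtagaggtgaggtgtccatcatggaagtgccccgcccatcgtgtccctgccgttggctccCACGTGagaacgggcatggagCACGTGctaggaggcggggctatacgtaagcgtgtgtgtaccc

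CACGTG was found in the 300-base windows of 11 of 32 germline genes (34.4%), against 8.4% of all windows, 9.89% of those of genes with a signal of 50 or more, 12.2% of those of genes higher in R1 and 8.25% of those of genes lower in R1. Stag3 and Mael hold the hexamer too, as do Ddx4 (2.40), Mov10l1 (1.36), Taf7l (1.33) and Slc25a31 (1.11). It is also in the window of Hormad1, which was not called with the brighter of its probe sets. Sycp1 (0.67), Tdrd1 (0.27) and Tdrd9 (0.10) hold it as well and were below the minimum difference.

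DNA replication genes that changed were higher in R1, with 16 of 44 higher, 0 lower and a median of 0.82. The origin recognition subunits Orc5 (1.75 ± 0.09) and Orc1 (1.73 ± 0.07), the licensing factor Cdt1 (1.65 ± 0.10) and the replication initiation factor Mcm10 (1.72 ± 0.05) were among them. Orc1 signals were 122, 115 and 129 in MEF and 437, 465 and 422 in R1. Pcna, the sliding clamp, was 0.89 ± 0.04 and not called, and the ribonucleotide reductase subunit Rrm2 had overlapping groups (0.01 ± 0.08). DNA repair genes had 17 of 32 members higher, 0 lower and a median of 1.10. The mismatch repair gene Msh6 was at 425, 388 and 449 in MEF and 2539, 2702 and 2469 in R1 (2.57 ± 0.06). The checkpoint kinase Chek2 (2.33 ± 0.08), the end-joining subunit Xrcc5, or Ku80 (2.28 ± 0.08), and the recombination gene Brca2 (2.16 ± 0.10) rose.

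Mitotic genes changed less, with 5 of 34 higher, 0 lower and a median of 0.48. None of the 5 was still called with limma's treat test against a difference of 1. Separase, Espl1, rose by 1.24 ± 0.08 and its inhibitor securin, Pttg1, by 1.22 ± 0.07. The regulators of entry into S phase differed by gene, with 1 of 20 higher and 4 lower. Cyclin E1 rose, with Ccne1 at 936, 936 and 929 in MEF and 2353, 2165 and 2539 in R1 (1.32 ± 0.06). Cyclin D2 fell, with Ccnd2 at 3822, 3929 and 4012 in MEF and 519, 815 and 568 in R1 (-2.63 ± 0.13). The inhibitors Cdkn2b (-1.55 ± 0.08) and Cdkn1c (-1.82 ± 0.08) fell, and Cdk4 had overlapping groups (-0.07 ± 0.05).

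Genes of the p53 pathway moved both ways, with 5 of 21 higher and 4 lower. The 3 Gadd45 stress genes differed in direction: Gadd45a rose by 2.18 ± 0.14, whereas Gadd45g (-2.93 ± 0.11) and Gadd45b (-1.17 ± 0.20, or -1.37 ± 0.18 without R1 replicate 2) fell. Gadd45g signals were 1333, 1184 and 1342 in MEF and 155, 142 and 169 in R1. Gadd45b was not called without R1 replicate 3 (-0.94). Trp53inp1, a p53-induced nuclear protein, rose from 410.1, 465 and 431 in MEF to 2684, 2610.3 and 2610.3 in R1. At telomeres, 3 of 13 genes rose and 0 fell, including Rif1 (2.88 ± 0.06), which also controls replication timing, and the repeat-binding factor Terf1 (2.08 ± 0.06). Ribosome production genes had 5 of 29 higher and 0 lower, with a median of 0.61, led by Nop10 (1.43 ± 0.09) and the RNA polymerase I subunit Polr1b (1.25 ± 0.06).

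Genes of energy metabolism differed enzyme by enzyme. Of 25 genes of glycolysis and pyruvate handling, 8 rose and 1 fell. The glucose transporter Slc2a3 (GLUT3) had 229, 284 and 278 in MEF and 6517, 6889 and 6039 in R1 (4.54 ± 0.09, 24.6-fold). Pdk1, the kinase that holds pyruvate back from the mitochondrion, had 55.3, 95.01 and 71.5 in MEF and 1121, 976 and 1160.1 in R1 (3.63 ± 0.14). The isozymes Aldoc (2.29 ± 0.09) and Ldhb (1.74 ± 0.09) rose, while the abundant Aldoa (0.37 ± 0.04), Hk1 (0.17 ± 0.05) and Ldha (0.12 ± 0.05) were not called. Eno3, the muscle enolase, fell by 1.44 ± 0.07. Respiratory chain genes hardly moved, with 1 of 34 higher and 0 lower at a median of 0.18. The exception was the cytochrome oxidase subunit Cox7a1, with 61.8, 70.5 and 68.6 in MEF and 236, 298 and 228 in R1.

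One-carbon genes had 5 of 21 members higher and 3 lower. The glycine cleavage enzymes, which feed the folate cycle, rose: Gldc had 58.1, 72.00 and 69.1 in MEF and 1009.9, 873 and 949 in R1 (3.54 ± 0.08), and Amt rose by 2.99 ± 0.08. The cytosolic enzymes Shmt1 (1.92 ± 0.05) and Mthfd1 (1.37 ± 0.07) rose, and the mitochondrial Aldh1l2 fell, with 359.5, 478 and 443 in MEF and 47.2, 48.8 and 47.8 in R1 (-2.78 ± 0.09). Phgdh, the first enzyme of serine synthesis, fell by 1.25 ± 0.06. In lipid synthesis 5 of 26 genes fell and 0 rose, among them the desaturases Fads1 (-1.66 ± 0.09), Fads2 (-1.38 ± 0.09) and Scd2 (-1.09 ± 0.09). Hsd17b7, a cholesterol synthesis enzyme, was called at -1.03 ± 0.10 but not without R1 replicate 3 (-0.90).

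**Figure D4:**
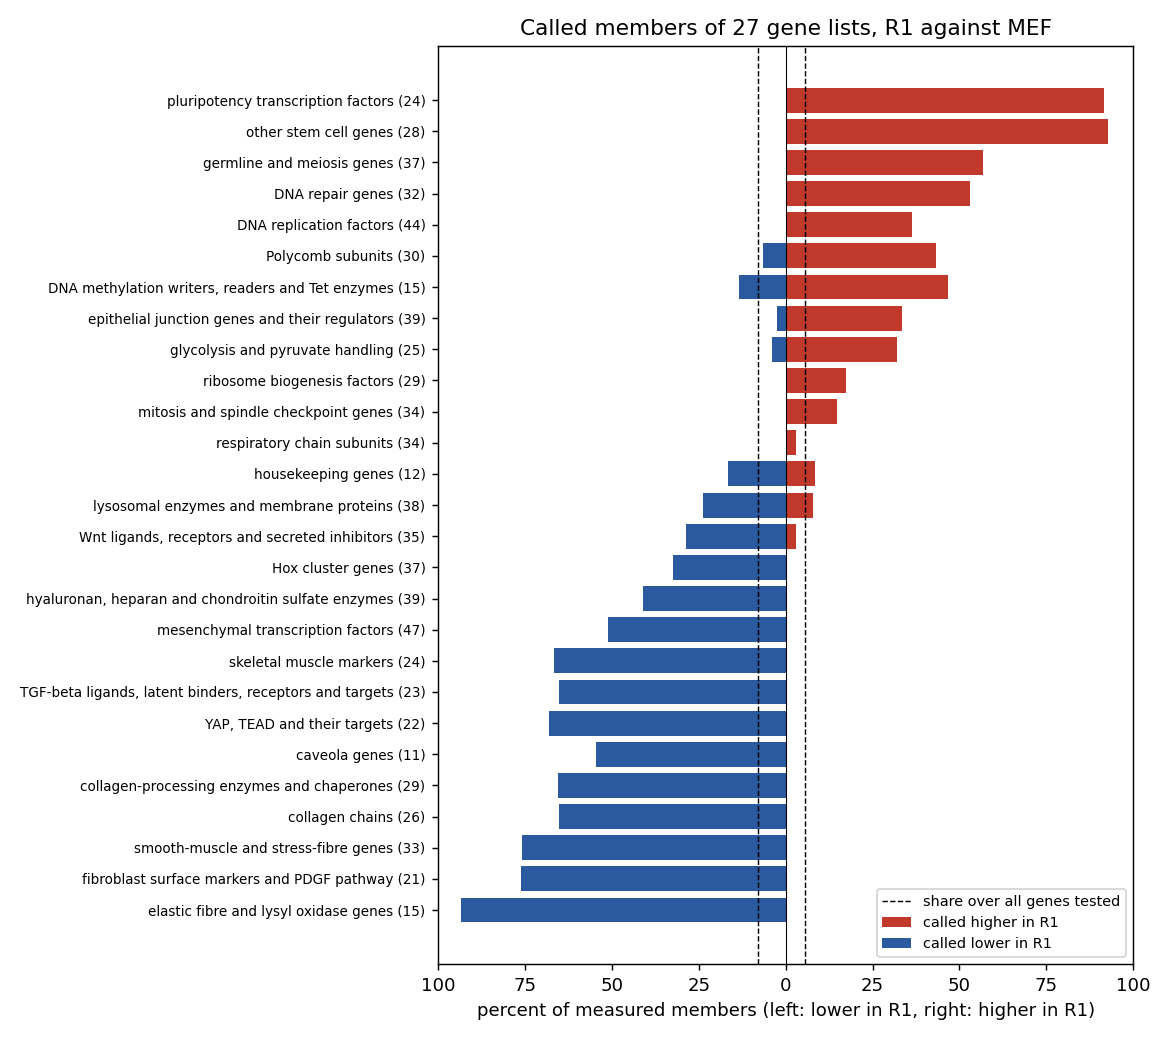
Percent of the measured members of 27 gene lists called higher (red, right of 0) and lower (blue, left of 0) in R1, with dashed lines at the shares over all genes tested, 5.56% and 7.93%. Lists of pluripotency, germline and DNA repair genes extend to the right, and lists of elastic fibre, stress-fibre and collagen genes to the left.

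On the fibroblast side, the extracellular matrix and the growth factor that drives it were lower in R1 at many genes and higher at few. In these bulk cultures, fewer cells of a type and less RNA per cell cannot be told apart. Of 23 genes of TGF-beta signalling, 0 rose and 15 fell, with a median of -1.56. The ligand Tgfb3 had the largest decrease of all genes on this scale, with 2135, 2226 and 2304 in MEF and 60.1, 112 and 59.3 in R1 (-4.63 ± 0.17, or -4.88 ± 0.06 without R1 replicate 2). R1 replicate 2 was the highest R1 array. The ligand Tgfb2 (-2.62 ± 0.10) and the latent-complex protein Ltbp1 (-3.53 ± 0.14), which stores TGF-beta in the matrix, fell. Inhba, the activin A subunit, was at 2452, 2937 and 2320.2 in MEF and 231, 549 and 147 in R1, a difference of -3.18 ± 0.37, or -3.68 ± 0.21 without R1 replicate 2. The intracellular mediator Smad4 (-0.19 ± 0.06) and the inhibitors Smad7 (0.16 ± 0.07) and Skil (0.08 ± 0.15) were not called.

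Of 26 collagen chains, 17 fell and 0 rose, with a median of -2.51. Col1a1, a chain of the fibrillar collagen of skin and bone, had 9542, 10735 and 10156 in MEF and 626, 1024 and 704 in R1 (-3.70 ± 0.15, or -3.90 ± 0.09 without R1 replicate 2). R1 kept 7.74% of the MEF mean. Col12a1, which decorates collagen fibrils, fell by 4.45 ± 0.15 and was left with 4.18%. Col5a2 (-3.96 ± 0.10), Col3a1 (-3.86 ± 0.16) and Col6a3 (-3.59 ± 0.12) fell by similar amounts. Col18a1, a chain of basement membranes, had the opposite sign and was not called, with 296, 345 and 317 in MEF and 592, 560.3 and 676 in R1. Of 29 genes that modify, fold, export or take up collagen, 19 fell and 0 rose. They included the collagen chaperone Serpinh1 (-3.61 ± 0.10), the prolyl hydroxylase subunit P4ha3 (-2.77 ± 0.13) and the propeptide-cleaving protease Bmp1 (-2.55 ± 0.12).

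Elastic fibre genes fell in 14 of 15 cases, with a median of -2.66. Fbln5, the fibulin that guides elastin assembly, had 2759, 3468 and 3350.1 in MEF and 121, 114 and 107 in R1 (-4.62 ± 0.10). The microfibril gene Fbn2 fell by 4.10 ± 0.13. Lox, the enzyme that cross-links collagen and elastin, was at 3468, 3875 and 3743 in MEF and 163, 396 and 169 in R1 (-3.96 ± 0.27, or -4.35 ± 0.11 without R1 replicate 2). The member not called was Fbln1 (-0.53 ± 0.12).

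Of 27 proteoglycan and matricellular genes, 14 fell and 0 rose. Postn, the adhesive protein periostin, had 2226, 3236 and 2521 in MEF and 69.6, 161 and 99.7 in R1 (-4.46 ± 0.26, or -4.73 ± 0.22 without R1 replicate 2). Aspn, a small leucine-rich proteoglycan, fell to dim levels, from 572, 910.2 and 695 in MEF to 21.6, 25.99 and 17.6 in R1. Decorin, Dcn, a proteoglycan of the same family, was not lower, with 359.5, 367 and 388 in MEF, 526, 526 and 461 in R1 and no call (0.42 ± 0.14). Sugar-chain enzymes followed the matrix proteins, with 16 of 39 lower and 0 higher. The hyaluronan synthase Has2 had 2077, 2210.3 and 2179.8 in MEF and 170.1, 329 and 142 in R1 (-3.33 ± 0.28, or -3.66 ± 0.20 without R1 replicate 2), and the sulfotransferase Chst2 fell by 3.48 ± 0.12. Among 10 cell-surface heparan sulfate proteoglycans, 6 fell and 0 rose, led by Sdc2 (-3.14 ± 0.10) and Sdc3 (-2.67 ± 0.15, or -2.87 ± 0.08 without R1 replicate 2).

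Matrix proteases and their inhibitors had 16 of 28 members lower and 1 higher. The urokinase gene Plau (-3.93 ± 0.11), the aggrecanase Adamts5 (-3.56 ± 0.14) and the membrane protease Mmp14 (-2.99 ± 0.07) fell. The inhibitor Timp3 had 2135, 2876 and 2195 in MEF and 211, 452 and 182 in R1 (-3.12 ± 0.28, or -3.50 ± 0.14 without R1 replicate 2). The gene that rose was the stromelysin Mmp3, with 82.1, 74.5 and 78.8 in MEF and 605, 588 and 588 in R1 (2.69 ± 0.11).

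Contractile genes were lower as a group, with 25 of 33 smooth-muscle and stress-fibre genes lower, 0 higher and a median of -2.06. Tagln, the actin-bundling protein SM22, had 5753, 5793 and 6165 in MEF and 168, 393 and 209 in R1 (-4.53 ± 0.24, or -4.86 ± 0.11 without R1 replicate 2). Acta2, smooth-muscle actin, had 10369, 9809.8 and 10298 in MEF and 369.6, 976 and 478 in R1 (-4.15 ± 0.27, or -4.54 ± 0.11 without R1 replicate 2). At both genes R1 replicate 2 was the highest R1 array and still far below every MEF array. Over the 25 genes that fell, R1 replicate 2 was the highest R1 array at 22. Myl9, a myosin light chain, had closer R1 values, 153, 190.0 and 144, against 3259, 3350.1 and 3327 in MEF (-4.23 ± 0.08). The transcription factor Srf, which drives many of these genes, was not called (-0.57 ± 0.08), nor was its cofactor Mrtfb (-0.29 ± 0.09).

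YAP and TEAD transmit cell spreading and tension to the nucleus. Of 22 genes of this pathway, 15 fell and 0 rose, with a median of -1.50. The target Ankrd1 had 2210.3, 1418 and 2062 in MEF and 45.6, 109 and 53.8 in R1 (-4.53 ± 0.25, or -4.84 ± 0.18 without R1 replicate 2). The receptor kinase Axl (-4.15 ± 0.14), Crim1 (-3.62 ± 0.10), and the secreted proteins Ccn2 (-3.13 ± 0.14) and Ccn1 (-2.93 ± 0.08) fell as well. The coactivator Yap1 (-0.37 ± 0.06) and its DNA-binding partners Tead1 (-0.92 ± 0.09) and Tead4 (0.01 ± 0.06) were not called. Other members of the pathway differed by more, with Tead3 at -1.53, Wwtr1 at -1.36 and Lats2 at -2.50. Yap1 signals were 923, 989 and 1024 in MEF and 729, 765 and 760.1 in R1, without overlap but with a small difference. Caveolae, the membrane pits of spread cells, had 6 of 11 genes lower, with Cav1 at 1513 ± 173 in MEF and 78.7 ± 23.2 in R1 (SD, n = 3 each; -4.03 ± 0.15).

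The promoters of Ankrd1 and Myl9 are printed because they hold the elements of these regulators, the TEAD-type hexamer CATTCC (the MCAT element) and the CArG box bound by Srf. Ankrd1 is at chr19:36119845-36120094 on the minus strand and Myl9 at chr2:156775214-156775463 on the plus strand, each as the 250 bases before the RefSeq start in GRCm38.p6. Capitals mark CATTCC or its reverse complement in Ankrd1 and the CArG box in Myl9.
Ankrd1: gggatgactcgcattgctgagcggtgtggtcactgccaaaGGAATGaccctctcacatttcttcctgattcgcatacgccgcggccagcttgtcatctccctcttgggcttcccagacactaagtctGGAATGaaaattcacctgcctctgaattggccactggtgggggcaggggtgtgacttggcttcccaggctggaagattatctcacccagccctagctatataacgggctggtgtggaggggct
Myl9: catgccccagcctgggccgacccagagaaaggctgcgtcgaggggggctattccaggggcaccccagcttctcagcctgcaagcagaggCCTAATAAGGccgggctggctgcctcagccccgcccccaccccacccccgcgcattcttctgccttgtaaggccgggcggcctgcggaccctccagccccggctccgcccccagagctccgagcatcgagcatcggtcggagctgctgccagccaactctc

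CATTCC was present in the 300-base windows of 11 of 16 YAP pathway genes (68.8%) and 11 of 28 contractile genes (39.3%). The shares were 13.1% of all windows, 14.6% of those of genes lower in R1 and 11.3% of those of genes higher in R1. The hexamer also occurs in the windows of Yap1, Ajuba and Ptpn14 (-0.47) of the YAP list, which were not called. In the contractile list, Lmod1 (-0.96) and Mylk (-0.60) hold it without a call. The CArG box was found in 4 of 28 contractile genes (14.3%), against 1.43% of all windows, 2.59% for genes lower in R1 and 0.926% for genes higher. One of the 4 is Srf itself, which was not called (-0.57). The YAP list holds known targets of TEAD, and Srf drives many of the contractile genes. The shares of these elements are therefore not independent of how the lists were chosen. Across all called genes, windows had a median of 20 CpG for genes higher in R1 and 21 for genes lower. The median was 15 over all genes tested and 20 over the 11309 genes with a signal of 50 or more in a group. The AP-1 element TGANTCA was in 3.7% of windows of genes higher in R1 and 5.42% of those lower, against 6.97% of all windows and 5.15% of those of genes with a signal of 50 or more.

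Transcription factors of mesenchyme had 24 of 47 members lower and 0 higher. The homeobox gene Prrx1, a limb mesenchyme factor, had 2998, 3019 and 2957 in MEF and 215, 292 and 198 in R1 (-3.60 ± 0.12). The T-box gene Tbx15 fell from 560.3, 639 and 617 in MEF to dim signals of 28.6, 38.3 and 31.8 in R1. Snai2 (-3.18 ± 0.19) and Zeb2 (-2.82 ± 0.07), repressors of E-cadherin, fell. Hox genes, which record position along the body axis, had 12 of 37 members lower and 0 higher. Hoxa5 had 263, 349.7 and 311 in MEF and 48.2, 65.8 and 59.7 in R1 (-2.13 ± 0.12), and Hoxd13 fell by 1.83 ± 0.09 and Hoxc6 by 1.82 ± 0.13.

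Surface proteins by which fibroblasts are recognised had 16 of 21 members lower and 0 higher. The marker Thy1 had 1771, 2091 and 2062 in MEF and 215, 280.1 and 204 in R1 (-3.01 ± 0.12), and the growth factor receptor Pdgfrb 1783, 2179.8 and 2062 in MEF and 144, 177 and 119 in R1 (-3.65 ± 0.12). Nrp1, a co-receptor for semaphorins and growth factors, fell (-4.46 ± 0.19, or -4.72 ± 0.12 without R1 replicate 2). The ligand Pdgfa was not called (0.42 ± 0.09). Among the largest decreases outside the lists were the protocadherin Pcdh18 (-4.50 ± 0.14), the growth factor Ptn (-4.30 ± 0.11), Lrrc17 (-4.31 ± 0.17) and the annexins Anxa1 (-4.27 ± 0.25, or -4.64 ± 0.06 without R1 replicate 2) and Anxa3 (-4.24 ± 0.14).

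Adhesion to matrix changed by chain. Integrins had 9 of 20 members lower and 1 higher, with Itgav (-2.86 ± 0.05) and the fibronectin receptor chain Itga5 (-2.52 ± 0.16) lower and Itgb7 higher (1.11 ± 0.13). The laminin receptor chain Itga6 was not called (0.24 ± 0.07). Laminins and their linkers had 3 of 13 higher and 5 lower. Lama1, the laminin chain of the early embryo, had 83.9, 78.2 and 85.6 in MEF and 391, 391 and 446 in R1 (2.11 ± 0.07), and Lama5 rose by 1.34 ± 0.07. Lama4, a mesenchymal and vascular chain, had 708 ± 70.8 in MEF and 75.8 ± 15.8 in R1 (SD, n = 3 each; -2.99 ± 0.13), and Lama2 fell by 1.87 ± 0.09. The shared chain Lamc1 was not called (-0.27 ± 0.07).

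Genes of intercellular signals that changed were mostly lower in R1. Bone morphogenetic protein (BMP) genes had 10 of 28 lower and 0 higher, including the target genes Id3, with 1209, 1409 and 1428 in MEF and 263, 347 and 247 in R1, and Id2 (-1.94 ± 0.18). The ligand Bmp4 was not called (0.23 ± 0.12). The 10 lower genes include the protease Bmp1, which is also counted among the collagen-processing genes above. Wnt genes had 10 of 35 lower and 1 higher: Wnt5a, a non-canonical ligand, had 1296, 1499 and 1323 in MEF and 118, 141 and 97.01 in R1 (-3.38 ± 0.11), and the receptor Fzd5 rose by 1.82 ± 0.12. Guidance genes had 11 of 29 lower and 2 higher, with the repellent Sema3a at 1399, 1193 and 1314 in MEF and 53.4, 87.4 and 62.7 in R1 (-3.99 ± 0.13). Ephrins and their receptors had 5 of 19 lower and 1 higher, with Epha3 lower (-3.48 ± 0.07) and Epha2 higher (1.38 ± 0.10). With a pseudocount of 64 in place of 16, 5 BMP and 7 guidance genes were lower, and 3 ribosome production genes were higher.

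Chemokine and cytokine genes had 8 of 29 members lower and 1 higher. The chemokine Cxcl12 (-3.12 ± 0.10) and the macrophage growth factor Csf1 fell, the latter from 1629, 1663 and 1607 in MEF to 195, 254 and 121 in R1 (-3.05 ± 0.20, or -3.28 ± 0.16 without R1 replicate 2). The receptor kinase Kit rose by 3.69 ± 0.12. Of 15 genes of antigen presentation, 2 fell and 0 rose, and B2m, the light chain of MHC class I, had 2469, 2610.3 and 2469 in MEF and 338, 760.1 and 335 in R1 (-2.46 ± 0.25, or -2.84 ± 0.05 without R1 replicate 2). Interferon-response genes had 2 of 26 higher (1 without MEF replicate 3 or R1 replicate 2) and 4 lower. The related membrane proteins Ifitm1 and Ifitm3 differed in direction, with Ifitm1 at 259.6, 269 and 269 in MEF and 1846, 1428 and 1499 in R1 (2.50 ± 0.08) and Ifitm3 at 3281, 3350.1 and 3492 in MEF and 1209, 1641 and 1067 in R1 (-1.38 ± 0.13). Lysosome genes had 9 of 38 lower and 3 higher, with the membrane protein Cd63 lower (-2.52 ± 0.10) and the mannosidase Manba higher (1.78 ± 0.08).

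Splicing regulators had 3 of 26 members higher and 4 lower. The muscleblind genes, which promote splice forms of differentiated cells, fell, with Mbnl1 at 1710.3, 1698 and 1675 in MEF and 331, 313 and 304 in R1 (-2.37 ± 0.05) and Mbnl2 at 2487, 2539 and 2469 in MEF and 446, 471 and 446 in R1 (-2.42 ± 0.08). The epithelial factors Esrp1 and Rbm47 (1.55 ± 0.08) rose. Ptbp1, a general splicing repressor, was not called (0.02 ± 0.04). Imprinted genes, expressed from a single parental copy, had 2 of 31 higher and 11 lower. The fetal growth factor Igf2 had 4705, 4905 and 4905 in MEF and 274, 437 and 234 in R1 (-3.92 ± 0.19, or -4.17 ± 0.12 without R1 replicate 2), and Dlk1 fell by 3.49 ± 0.08. Phlda2, a brake on placental growth, was higher, with 75.1, 69.6 and 78.8 in MEF and 1003, 929 and 929 in R1 (3.42 ± 0.09), as was Peg10 (1.58 ± 0.06).

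MicroRNA genes were read through probe sets for hairpins, which do not resolve the mature arms, and were chosen after their values were seen. Of 298 such genes, 157 were dim in all groups, 12 rose and 6 fell, which is 6.04%, and the median was 0.01. Mir363 had the largest rise, from 13.5, 12.7 and 12.6 in MEF to 156, 154 and 163 in R1 (2.59 ± 0.10). Neighbouring hairpins of the Mir17 cluster rose together: Mir18 had 91.8, 82.7 and 85.04 in MEF and 329, 385 and 278 in R1 (1.75 ± 0.13), Mir19a rose by 1.70 ± 0.17, Mir20a by 1.60 ± 0.12 and Mir17 by 1.52 ± 0.14. Mir106a rose by 1.08 ± 0.14. Mir145a, a microRNA of smooth muscle and fibroblasts, had the largest fall, from 362, 335 and 399 in MEF to 39.1, 32.9 and 27.5 in R1 (-2.96 ± 0.12). Mir125b-1 (-1.54 ± 0.09) and Mir29a (-1.06 ± 0.08) fell, the latter at dim levels throughout.

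Mature sequences of these hairpins are printed from RefSeq to show which share a seed, the bases 2 to 8 that pair with targets, in capitals. In GRCm38.p6 the called hairpins of the Mir17 cluster lie on the plus strand, from chr14:115043684-115043706 for miR-17-5p to chr14:115044358-115044380 for miR-19b-3p. Members of the cluster that were not called were not looked up. The arms miR-106a-5p at chrX:52742541-52742563 and miR-363-3p at chrX:52741697-52741718 lie near each other on the minus strand. Of the 298 genes, 271 were found in the sequence table.
miR-17-5p: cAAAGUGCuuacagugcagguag
miR-20a-5p: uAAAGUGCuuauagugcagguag
miR-106a-5p: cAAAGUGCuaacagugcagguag
miR-18a-5p: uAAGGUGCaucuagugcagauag
miR-19a-3p: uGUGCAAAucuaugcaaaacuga
miR-19b-3p: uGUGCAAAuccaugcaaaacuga
miR-363-3p: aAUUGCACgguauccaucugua
miR-125b-5p: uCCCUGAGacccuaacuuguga
miR-29a-3p: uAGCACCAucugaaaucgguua
miR-28a-5p: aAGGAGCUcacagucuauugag
miR-708-5p: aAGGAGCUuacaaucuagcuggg

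The first 3 share the seed AAAGUGC, and both miR-19 sequences share GUGCAAA. Called hairpins with the seed AAAGUGC lie on both chromosomes. The printed arms miR-17-5p and miR-106a-5p are almost identical, so the probe sets may not tell these hairpins apart. Mir106a also had low signals, with means of 16.8 in MEF and 53.5 in R1. A shared seed did not always go with a shared direction. Mir28a fell, from 50.6, 57.7 and 51.3 in MEF to 14.5, 14.3 and 14.7 in R1 (-1.18 ± 0.05), and Mir708 rose, from 30.7, 26.9 and 29.7 in MEF to 93.1, 81.6 and 82.7 in R1 (1.17 ± 0.07), and their 5p arms share the seed AGGAGCU.

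Markers of other cell types were examined in both groups. Skeletal muscle genes were higher in MEF, with 16 of 24 lower in R1 and 0 higher. Their summed signal was 10003 to 12788 in the MEF arrays and 1743 to 1960.1 in the R1 arrays. Actc1, cardiac actin, had 4513, 4837 and 5293 in MEF and 241, 190.0 and 239 in R1 (-4.36 ± 0.14). Tnnc1, a troponin of slow muscle, had 820.3, 1218 and 1201 in MEF and 75.1, 67.6 and 65.3 in R1 (-3.66 ± 0.16), and the embryonic myosin Myh3 405, 739 and 622 in MEF and 62.7, 53.1 and 59.3 in R1 (-2.98 ± 0.17). MEF replicate 1 was the lowest MEF array at all 3 genes. The list overlaps stress-fibre genes in function, and whether muscle cells in the MEF cultures had a part in the contractile differences was not tested. Unlike most fibroblast genes, the 16 muscle genes had R1 replicate 2 as the highest R1 array at 1 gene only.

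The macrophage and blood list had 2 of 20 genes higher in R1, Laptm5 (3.27 ± 0.17) and Cd68 (1.36 ± 0.10), with summed signals of 835 to 905 in MEF and 1699 to 1953 in R1. Of its members, 14 were dim in both groups, and C1qa was at 0.02 ± 0.07 and Tyrobp at 0.05 ± 0.06. Among 15 endothelial genes, Pecam1, also a surface protein of stem cells, rose (2.07 ± 0.21) and Flt1 (-2.28 ± 0.10) and Emcn (-1.08 ± 0.06) fell. Of 18 endoderm genes, 1 rose (Lama1) and 3 fell, and Gata4 (0.17 ± 0.07) and Gata6 (-0.69 ± 0.08) were not called. Of 13 trophoblast genes, 2 rose, Tfap2c (2.19 ± 0.07) and Eomes (1.52 ± 0.25), and Gata3 fell (-1.64 ± 0.05). Primed epiblast and early mesoderm genes had 3 of 15 higher and 0 lower, with Fgf5 not called (0.45 ± 0.27). Neural genes had 2 of 16 higher, including Stmn2 (2.70 ± 0.07), and 3 lower, including the intermediate filament gene Nes (-2.77 ± 0.15). Among keratinocyte genes, 1 of 13 rose, Sfn (1.33 ± 0.12), and among cartilage, bone and fat genes 1 of 16 rose and 1 fell, Alpl and Col2a1 (-2.50 ± 0.09). Leaving out single arrays gave 1 to 3 lower genes in the last list and 1 or 2 among the trophoblast genes.

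Genes of the sex chromosomes differed between the cultures. Xist, the RNA that coats the inactive X chromosome in female cells, had 719, 815 and 855 in MEF and 81.01, 95.01 and 63.1 in R1 (-3.10 ± 0.12). Of the Y-linked genes, Eif2s3y rose, from 228, 256 and 244 in MEF to 653, 613 and 662 in R1 (1.35 ± 0.07), and Uty by 1.16 ± 0.09. Kdm5d fell, from 82.1, 94.4 and 93.1 in MEF to 29.9, 29.04 and 22.8 in R1 (-1.29 ± 0.09). Both kinds of gene thus had signal in MEF. Among 12 genes often used as references, 1 rose and 2 fell: Tfrc rose by 1.21 ± 0.06, B2m and Gusb (-1.29 ± 0.10) fell, and Ppia (0.09 ± 0.04) and Rplp0 (-0.04 ± 0.04) were not called.

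At the 448 strong MEF genes that fell, R1 kept between 3.48% and 50.04% of the MEF signal, with a median of 20.9%, and 88 genes kept under 10%. Of these, 16 kept under 5%. At the 259 strong R1 genes that rose, MEF had between 0.413% and 49.3% of the R1 signal, with a median of 34.7%. The lowest percents rest on dim MEF signals, so they show a large difference and not its exact size. Here 47 genes were under 10% and 32 under 5%. These ranges use the values that made the calls and are a description. The upper limits follow from the minimum difference.

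**Figure D5:**
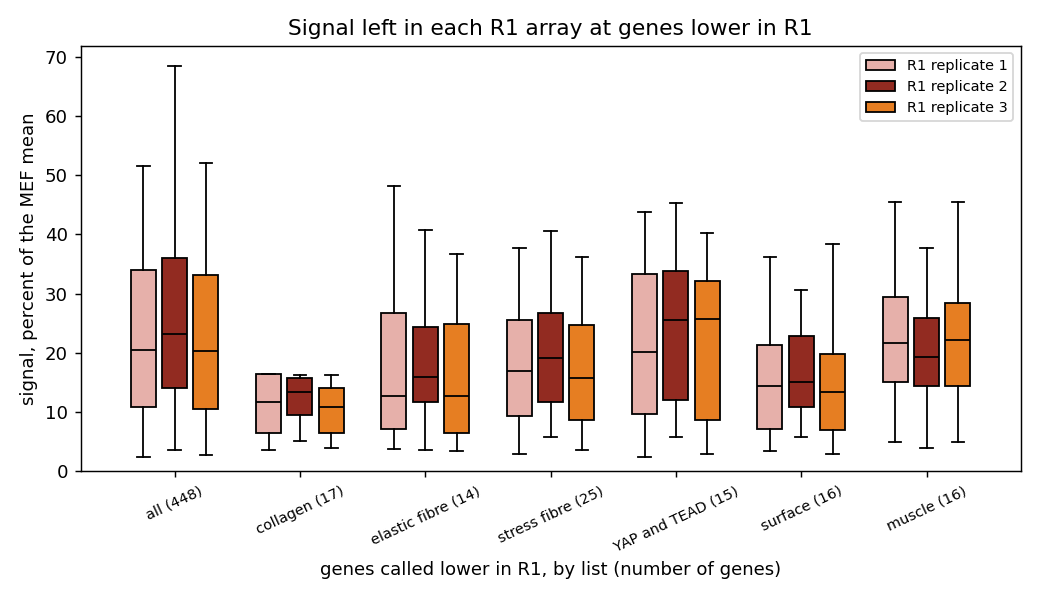
Signal of each R1 array as a percent of the MEF mean at genes called lower in R1, for all 448 with a MEF mean of 1000 or more and for 6 gene lists; boxes span the quartiles with the median as a line, and whiskers reach the last value within 1.5 box lengths. In the first group the medians are 20.5%, 23.2% and 20.2% in R1 replicates 1, 2 and 3.

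The R1 and iPS arrays differed at few of these genes. Over all 19938 genes, 0.461% were called between iPS and R1. Of the 493 genes selected by rule for this comparison, 20 were, and among the 448 strong MEF genes that fell, the iPS arrays had medians of 23.6% to 24.5% of the MEF signal. Zfp42 had 3541, 3795 and 3281 in R1 and 446, 519 and 553 in the iPS arrays, an iPS minus R1 difference of -2.77 ± 0.11. Ccnb1ip1 had 709, 771 and 739 in R1 and 77.7, 83.3 and 93.7 in iPS (-2.91 ± 0.08). Both comparisons with MEF share the MEF arrays, so these direct contrasts are the test of where the stem cell and iPS cell changes differed.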

How the data were processed

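RNA of 9 mouse samples (3 MEF, 3 R1, 3 iPS) was extracted with Trizol, labelled with biotin and measured on Affymetrix whole-transcript arrays, per the labels. The authors deposited linear intensity values (signals), 1 per probe set and array, from 4 to 18820.3. GCOS 1.4 is listed in the submitters' processing notes, with no role. How background, summarisation and normalization were handled is not stated in the sources used here. Array medians were close (78.2 to 83.3), and no normalization was added. The number of arrays limits the precision.

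The platform annotation gave 1 gene symbol to 21789 of 35557 probe sets and several to 1621, and did not list 12147. The latter 2 kinds are unnamed here. A RefSeq table of GRCm38.p6 held 21698 of the 21789 and changed 0 symbols. For 999 genes with several probe sets the highest mean of log2(signal + 16) decided, which left 19938 genes, of which 30.1% had a mean signal under 50.

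All 9 arrays entered 1 limma 3.58.1 fit (lmFit and eBayes, R 4.3.3) with a mean per group and 6 residual degrees of freedom. Benjamini-Hochberg adjustment ran over 19938 genes. Before the minimum difference of 1 was applied, 10524 genes had an unadjusted p under 0.05. On simulated data for R1 against MEF with 19938 genes, calls were made for 98% of 100 genes with a change of 1.25 and for 100% of 100 genes with a change of 2, and 0 calls were false. The changes were planted only in genes above a minimum mean signal, and noise was drawn separately for each gene and array. These shares therefore do not cover dim genes or an array that stands apart at many genes, as R1 replicate 2 did.

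The comparison, the 58 gene lists (1436 genes, 1353 measured) and the rules were chosen with earlier results of these data known. Named genes were the 15 largest changes in each direction among genes with separated arrays, passing over predicted, Riken, clone and microRNA symbols. Up to 6 called members of each list in its main direction, up to 3 in the other and up to 3 members not called with the highest signal were added, as were Zfp42, Pou5f1, Dppa5a, Tgfb3, Fbln5, Sox2, Nanog, Klf4, Myc, Col1a1, Thy1, Cdh1 and Xist. The microRNA genes were chosen after their values were seen. Promoter windows (250 bases before and 50 after the start) and microRNA sequences are RefSeq's for GRCm38.p6. Where a gene had several windows the first listed was used, and 15563 genes had a window.

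Alternatives covered the arrays fitted, pseudocount, normalization, dim genes, the probe set, array weights, an intensity trend, the minimum difference, treat, an equal-variance test per gene, the replicate block, the promoter background and leaving out each array.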

Additional observations from a re-analysis of the deposited data

Results flagged for a closer look

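The contrast of iPS with R1 showed where the change from MEF differed between the 2 pluripotent lines. Of the genes named by rule, 20 were called in it (limma, adjusted p under 0.05 and a difference of 1 or more), and the values below are iPS minus R1 on the log2 scale. Among stem cell and germline genes, Zfp42 was at -2.77, Zfp640 at -1.59, Ccnb1ip1 at -2.91, Sycp3 at -1.25, Stag3 at -1.09, Otx2 at -1.34, Lifr at -1.10 and the securin gene Pttg1 at -1.60. Higher in iPS were Dppa3 at 1.63, which was not called between R1 and MEF, the splicing factor Esrp1 at 1.17 and the gap-junction gene Gja1 at 1.4. Gja1 was 1672 ± 46.98 in MEF, 931 ± 77.4 in R1 and 2721, 2120.2 and 2647 in the iPS arrays. Genes of the fibroblast side that were higher in iPS than in R1 were Tagln at 1.17, Acta2 at 1.15, Ccn2 at 1.18, Ccn1 at 1.05, Sdc2 at 1.03 and Ifitm3 at 1.14. The receptor gene Epha7 was at 1.01, and the Y-linked genes Uty and Kdm5d at 1.39 and 1.19.

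Several of these calls were lost when 1 array was left out. Acta2 was not called in 8 of 9 settings that each left out 1 array, where values were 0.86 to 1.20. It was called at 1.54 without R1 replicate 2. The call of Acta2 was near the threshold. MEF arrays do not enter this difference, and leaving out 1 of them kept it at 1.15 with limma's adjusted p at 0.0506 to 0.0605. Tagln was not called without R1 replicate 1 (0.92), R1 replicate 3 (1.07) or iPS replicate 1 (1.07). Otx2 was not called without R1 replicate 1 (-1.19) or R1 replicate 3 (-1.22). Epha7 was not called without R1 replicate 1 (0.97), iPS replicate 1 (0.85) or iPS replicate 3 (0.90), and Sdc2 without R1 replicate 1 (0.95), R1 replicate 3 (0.9995) or iPS replicate 3 (0.99). Lifr without iPS replicate 1 (-0.9986), Ccn1 without R1 replicate 3 (0.97) and Stag3 without R1 replicate 2 (-0.98) fell just short of the minimum difference.

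Probe sets without a single gene symbol took no part in the comparison. Of 13768 such probe sets, 475 were higher and 304 lower in R1 than in MEF by the same rule, which is 5.66% called in all.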

How the results depend on the processing

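None of the 327 named genes called between R1 and MEF turned its direction in any of the 23 alternatives. Named genes that were not called could turn. Hk1 was at 0.17 with the probe set used and -0.60 with its other, and Rplp0 at -0.04 and 0.03. When each array was left out in turn, there were 2675 to 2735 called genes, 1081 to 1151 higher and 1524 to 1654 lower in R1, 564 to 580 called genes of the lists, 327 to 334 called named genes and 15 to 27 named genes called between iPS and R1. Without a minimum difference the counts were 9748 called, 5162 higher, 4586 lower and 1043 in the lists, with 108 named genes called between iPS and R1. With treat against a difference of 1, they were 677 higher and, between iPS and R1, 3. The promoter share for CATTCC was 12.1% with genes of signal 50 or more as background, against 13.1% over all genes. The deviations of same-numbered MEF and R1 arrays correlated at 0.203, 0.189 and -0.0403. Those of MEF and R1 arrays with different numbers correlated at -0.232 to 0.0929. With 3 arrays per group, these values cannot decide whether the replicate numbers pair the samples. With the replicate block, 2689 genes were called, 1109 higher and 1580 lower, with 566 in the lists, 327 named and 20 between iPS and R1. Of 327 called named genes, 51 lost their call in some alternative, 7 of them on leaving out 1 array. These were Fgf2 (-0.99 without MEF replicate 2), Cdkn2c (-0.89 without MEF replicate 2), Dusp4 (-0.94), Gadd45b (-0.94) and Hsd17b7 (-0.90 without R1 replicate 3), Ddx58 (0.99 without MEF replicate 3, 0.97 without R1 replicate 2) and Spry1 (without MEF replicate 3 or R1 replicate 2). The probe set with the lowest mean ended the calls of Socs3 (0.71), Tet3 (-0.91), Eed (0.27), Celf2 (-0.14), Sema4d (0.009) and Dab2 (-0.005), among others, so these genes rest on 1 of their probe sets. Dim signals, the unstated upstream processing and 3 arrays per group limit the rest.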
